A study of Mus musculus with 9 samples.

Results

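The 10 genes MYOF, ASAP1, CRIM1, FJX1, GADD45A, CCDC80, DOCK5, ARHGEF17, NUAK2 and RBMS3 are published targets of the coactivators YAP and TAZ that lie outside the better known CCN, ANKRD1, Hippo and growth factor genes. They were found by gene name among the 58735 genes of the count table, and each name matched 1 gene. RNA came from Caki cells, an established human line of clear cell renal carcinoma, in 3 groups of 3 libraries each. The YAP1-S127A group carried a retroviral vector with YAP1 in which alanine replaces the serine at residue 127, the YAP1 group carried wild-type YAP1 in that vector, and the MX group carried the empty vector. All cells had been selected with G418. The labels do not say whether a group was a pool or a clone, nor whether separate cultures gave its libraries. The p-values therefore speak only of how much these libraries varied, and that variation may be technical. The comparisons ask how these targets respond to added YAP1 and to YAP1 that the inhibitory site no longer restrains.

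YAP and TAZ have no DNA-binding domain of their own and act on genes through TEAD transcription factors. The Hippo kinases LATS1 and LATS2 phosphorylate YAP at several serines, and phosphorylation at the mutated serine lets 14-3-3 proteins hold YAP in the cytoplasm. Target genes of YAP and TAZ include regulators of the actin cytoskeleton, cell surface proteins, matrix proteins and feedback inhibitors of the pathway.

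The counts of the YAP1 gene take in the cells' own transcript and the introduced one together. Levels are given in CPM, counts relative to the TMM-scaled library size, for replicates 1, 2 and 3 in turn. YAP1 had 741, 692 and 631 CPM in the YAP1-S127A libraries, 1519, 1003 and 1137 CPM in the YAP1 libraries and 108, 100.3 and 91.1 CPM in the MX libraries. Libraries held 15789722 to 24811150 counts, and MX replicate 1 had 25491 genes with a count, against 21568 to 23156 in the others. Mitochondrially encoded transcripts took 29.6, 7.40 and 21.2% of counts in the YAP1-S127A libraries, 3.50, 8.60 and 11.4% in the YAP1 libraries and 5.89, 6.60 and 1.896% in the MX libraries. The kidney transcription factor PAX8 was present at 228 to 302 CPM in the YAP1-S127A libraries, 276 to 312 CPM in the YAP1 libraries and 279.9 to 291 CPM in the MX libraries, whereas the clear cell marker CA9 stayed under 1 CPM in all 9. Leukocyte markers summed to at most 1.68 CPM and endothelial markers to at most 1.89 CPM per library. The 7 fibroblast markers summed to 2146 to 3958 CPM in the YAP1-S127A libraries, 1336 to 1689 CPM in the YAP1 libraries and 774 to 1308 CPM in the MX libraries, mostly COL1A1. In that list, PDGFRA, with at most 5 counts in any library, and COL3A1 did not pass the filter for testing. COL3A1 had 0.53, 5.65 and 2.15 CPM in the YAP1-S127A libraries, 0.26, 0.11 and 0 CPM in the YAP1 libraries and 0.071, 0.060 and 0.038 CPM in the MX libraries. The mitochondrial share was entered as a covariate in 1 alternative, and the part of the fibroblast markers in the results on the 10 genes was not tested.

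All 10 genes were tested, and in YAP1-S127A against MX 5 of them rose, CRIM1, CCDC80, FJX1, MYOF and GADD45A, which is 50% against 18.4% of all 15492 tested genes called in either direction and 9.53% called higher. The other 5 did not pass an adjusted p of 0.05 in edgeR's quasi-likelihood test, although each had a log2 fold change above 0; that of RBMS3 was below 0 when scaled to total counts (-0.25) and when chromosome medians were removed (-0.041), and lay between -0.038 and -0.0053 without MX replicate 2, without MX replicate 3 or without YAP1-S127A replicate 3. The median log2 fold change of the 10 was 0.49 and ran from 0.032 for RBMS3 to 1.19 for CRIM1, beside a median of -0.0045 over all tested genes. In YAP1 against MX 2 of the 10 rose, CCDC80 and FJX1, which is 20% against 6.81% of all tested genes called and 3.23% called higher. The median here was 0.38, beside -0.0036 over all tested genes. Between the constructs 1 of the 10 was higher with YAP1-S127A, CRIM1, which is 10% against 1.97% of all tested genes called and 1.13% called higher. Both comparisons with MX use the same 3 MX libraries and so are not independent. DESeq2 called 8, 4 and 1 of the 10 in YAP1-S127A against MX, YAP1 against MX and YAP1-S127A against YAP1, and 3091, 1246 and 475 of all 15492 tested genes. Under total count scaling the median over all tested genes became -0.28 in YAP1-S127A against MX, and 3 of the 10 were called there, and over all genes 611 were called higher and 3836 lower instead of 1476 and 1369.

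**Figure D1:**
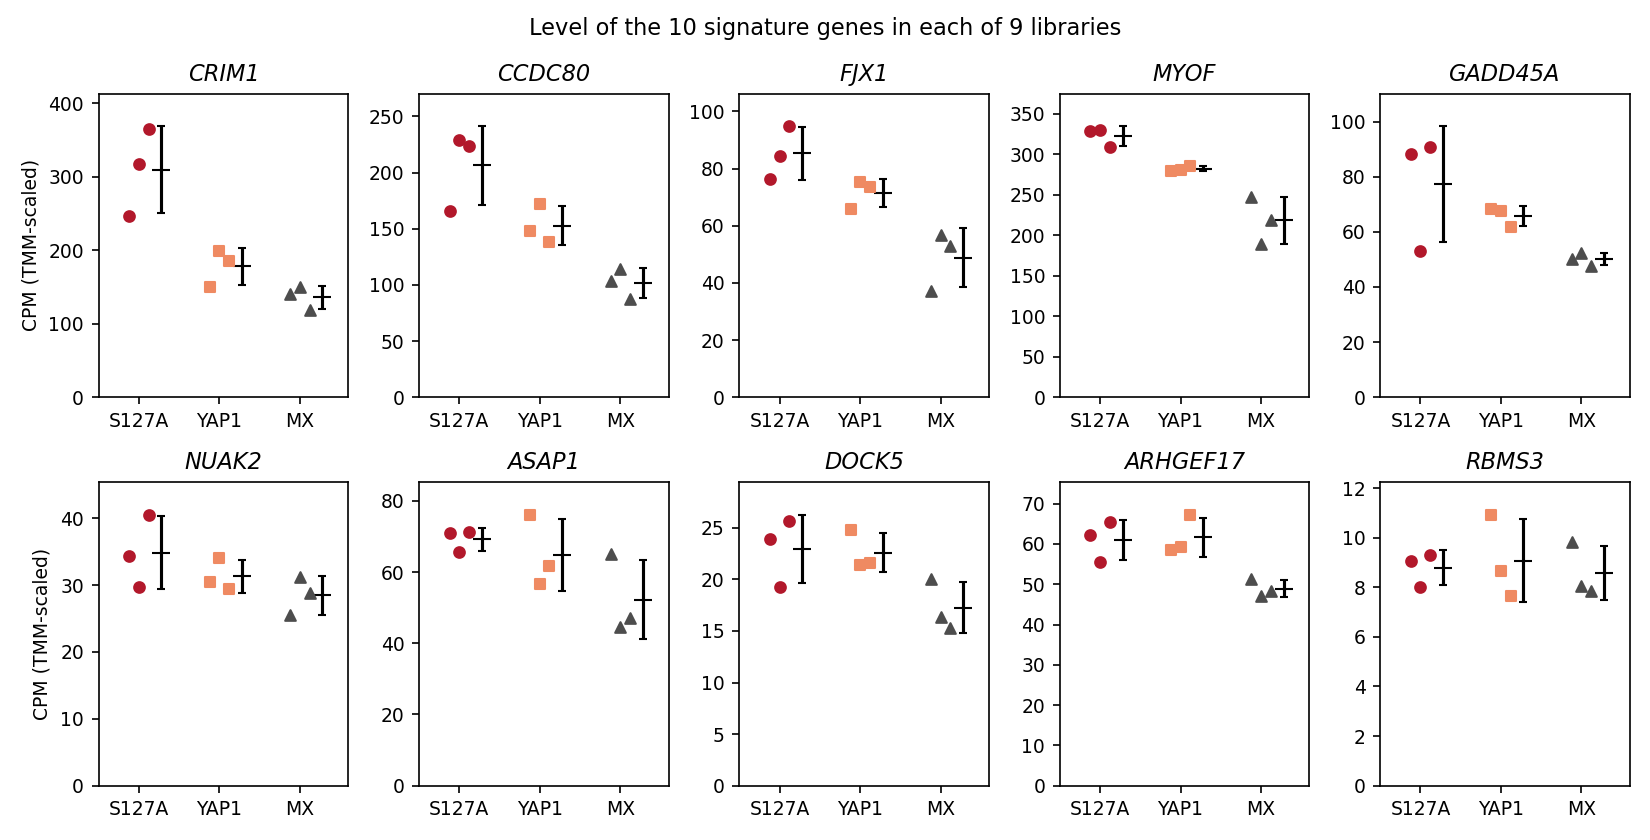
CPM of each of the 10 genes in each of the 9 libraries, with the YAP1-S127A libraries (circles) at the left, the YAP1 libraries (squares) in the middle and the MX libraries (triangles) at the right of each panel. Crossed bars give the mean ± SD of 3 libraries, and every axis starts at 0. CRIM1 had 247 to 365 CPM with YAP1-S127A, above all other libraries, while RBMS3 lay between 7.63 and 10.9 CPM in every group.

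The 4 surface, secreted and membrane proteins all rose in YAP1-S127A against MX. CRIM1 (ENSG00000150938, chromosome 2 from 36355926 to 36551135, plus strand, in the coordinates of the table, for which no human build is named) encodes a transmembrane protein with chordin-like cysteine-rich repeats that binds bone morphogenetic proteins. It had 247, 318 and 365 CPM in the YAP1-S127A libraries, 150.2, 199 and 186 CPM in the YAP1 libraries and 139.8, 149.8 and 119 CPM in the MX libraries. All YAP1-S127A libraries lay above all others, while the lowest YAP1 library lay just above the highest MX library. CRIM1 rose 2.28-fold in YAP1-S127A against MX (log2 fold change 1.19, SE 0.15, adjusted p = 1.09e-05 with edgeR), and it ranked 226 of 15492 genes by p. Its value in YAP1 against MX was 0.39 (SE 0.15, adjusted p = 0.129). The difference between the constructs was 0.80 (SE 0.15, adjusted p = 0.00489, rank 94), higher in 3 of 3 YAP1-S127A libraries. Without YAP1-S127A replicate 3 this difference was 0.66 with an adjusted p of 0.0604. In bulk RNA, more RNA per cell and more cells with the RNA cannot be told apart.

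CRIM1 overlaps FEZ2 on the opposite strand, whose counts were 13.9% of those of CRIM1. Per the labels the library kit was stranded, but no source used here gives the strand setting of the counting, so whether reads are shared was not tested. For FEZ2 the fold change on the log2 scale was 0.44 (adjusted p = 0.0120) in YAP1-S127A against MX, 0.39 (adjusted p = 0.0475) in YAP1 against MX and 0.047 (adjusted p = 0.921) between the constructs.

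CCDC80 (ENSG00000091986, chromosome 3 from 112596794 to 112649530, minus strand) encodes a secreted protein of the extracellular matrix. Its levels were 166, 229 and 224 CPM in the YAP1-S127A libraries, 148, 172 and 138 CPM in the YAP1 libraries and 103.9, 114 and 87.7 CPM in the MX libraries. Both constructs lay wholly above MX, and YAP1-S127A replicate 1 lay within the range of the YAP1 libraries. CCDC80 rose in YAP1-S127A against MX (log2 fold change 1.02, SE 0.14, adjusted p = 3.74e-05), and by 0.58 (SE 0.14, adjusted p = 0.0137) in YAP1 against MX. Between the constructs it was 0.43 (95% interval 0.14 to 0.73, adjusted p = 0.141), and 0.56 (adjusted p = 0.0448) without YAP1-S127A replicate 1. Of the fibroblast markers, which include other matrix genes, LUM, COL1A1, COL1A2 and PDGFRB were also called higher in YAP1-S127A against MX. DCN, with at most 1.07 CPM in any library, was not called there (log2 fold change 0.17, adjusted p = 0.864). In YAP1 against MX only LUM of the tested markers was called. PDGFRB (-0.21) and DCN (-0.83) had log2 fold changes below 0 in YAP1 against MX. The part of the fibroblast markers in the CCDC80 values was not tested. The call for CCDC80 in YAP1 against MX was lost without MX replicate 3 (adjusted p = 0.0897) and without YAP1 replicate 2 (adjusted p = 0.0985).

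FJX1 (ENSG00000179431, chromosome 11 from 35618419 to 35620868, plus strand) is the human relative of Drosophila four-jointed, a Golgi kinase that phosphorylates the cadherin domains of Fat and Dachsous. Its span of 2450 bases equals its deposited gene length, so the annotation behind the table holds no intron there. FJX1 had 76.5, 84.5 and 94.9 CPM in the YAP1-S127A libraries, 66.0, 75.2 and 73.4 CPM in the YAP1 libraries and 37.1, 56.6 and 52.8 CPM in the MX libraries. The 3 groups did not overlap, and MX replicate 1 was the lowest of all. FJX1 rose in YAP1-S127A against MX (log2 fold change 0.81, SE 0.14, adjusted p = 0.000424) and by 0.55 (SE 0.14, adjusted p = 0.0208) in YAP1 against MX. The YAP1 call was lost without YAP1 replicate 2 (adjusted p = 0.100), without YAP1 replicate 3 (adjusted p = 0.0846) and when scaled to total counts (adjusted p = 0.0504). Between the constructs the log2 fold change was 0.26 (95% interval -0.039 to 0.55, adjusted p = 0.495).

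MYOF (ENSG00000138119, chromosome 10 from 93306429 to 93482317, minus strand) encodes myoferlin, a membrane protein with several C2 domains that acts in membrane fusion, repair and receptor traffic. It had 329, 330.3 and 309 CPM in the YAP1-S127A libraries, 279.7, 280.4 and 285 CPM in the YAP1 libraries and 247, 189.6 and 219 CPM in the MX libraries. The 3 groups did not overlap and the YAP1 libraries lay closest together. MYOF rose 1.48-fold in YAP1-S127A against MX (log2 fold change 0.56, SE 0.12, adjusted p = 0.00201), and had 0.37 (SE 0.12, adjusted p = 0.0688) in YAP1 against MX. That value for YAP1 was 0.46 (adjusted p = 0.00949) without MX replicate 1, while scaling to total counts ended the call in YAP1-S127A against MX (0.28, adjusted p = 0.187). Between the constructs it was 0.20 (95% interval -0.049 to 0.44, adjusted p = 0.534).

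**Figure D2:**
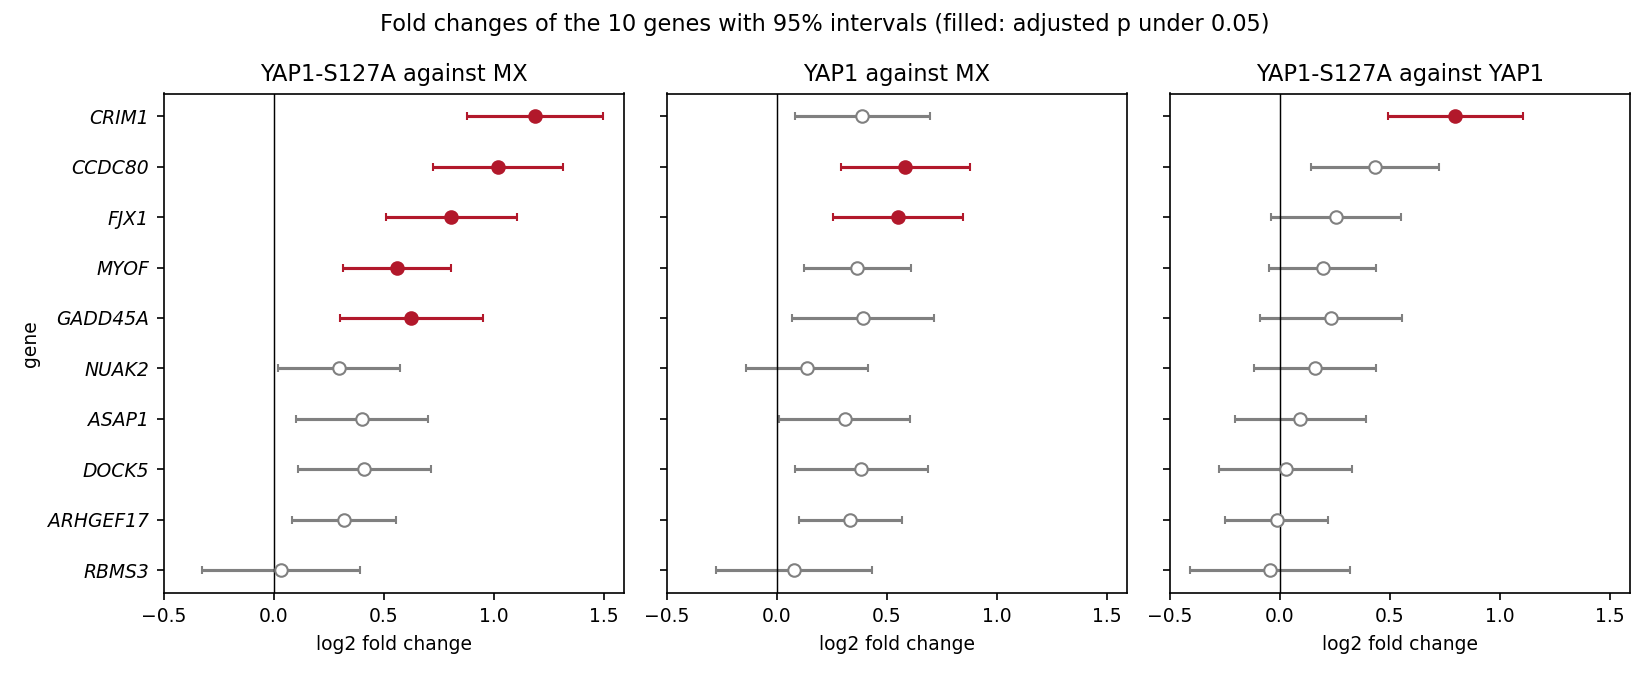
Log2 fold change (horizontal axis) of each of the 10 genes (vertical axis) in YAP1-S127A against MX, YAP1 against MX and YAP1-S127A against YAP1. Points carry 95% intervals from edgeR, and filled red points passed an adjusted p of 0.05. In the left panel 5 genes passed, led by CRIM1 at 1.19 and CCDC80 at 1.02, in the middle panel 2 passed, and in the right panel CRIM1 at 0.80 did.

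GADD45A (ENSG00000116717, chromosome 1 from 67685061 to 67688338, plus strand) encodes a small protein induced by DNA damage through p53 and by other stresses, which binds PCNA and the kinase MAP3K4. Levels were 88.2, 53.03 and 90.7 CPM in the YAP1-S127A libraries, 68.3, 67.5 and 61.7 CPM in the YAP1 libraries and 50.3, 52.3 and 47.8 CPM in the MX libraries. YAP1-S127A replicate 2 lay just above the MX libraries and below all YAP1 libraries, while replicates 1 and 3 were the highest of all 9. The same replicate 2 had 7.40% mitochondrial transcripts, against 29.6% and 21.2% in replicates 1 and 3. The MX libraries had 5.89, 6.60 and 1.896%. As this share differs in part with the construct, their parts in the GADD45A values cannot be told apart. GADD45A rose in YAP1-S127A against MX (log2 fold change 0.63, SE 0.15, adjusted p = 0.00745). It was 0.50 (adjusted p = 0.0616) without YAP1-S127A replicate 3, 0.33 (adjusted p = 0.111) when scaled to total counts and 0.17 (adjusted p = 0.667) with the mitochondrial share of each library as covariate. For YAP1 against MX, where the groups did not overlap, it was 0.39 (SE 0.15, adjusted p = 0.148), and between the constructs 0.23 (95% interval -0.090 to 0.55, adjusted p = 0.593).

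NUAK2 (ENSG00000163545, chromosome 1 from 205302059 to 205321791, minus strand) encodes a kinase of the AMPK family that is activated by STK11 and acts on the myosin phosphatase. It had 34.3, 29.7 and 40.6 CPM in the YAP1-S127A libraries, 30.5, 34.0 and 29.4 CPM in the YAP1 libraries and 25.5, 31.3 and 28.8 CPM in the MX libraries. The ranges of all 3 groups overlapped. Its log2 fold change was 0.30 (95% interval 0.018 to 0.57, adjusted p = 0.132) in YAP1-S127A against MX and 0.14 (95% interval -0.14 to 0.41, adjusted p = 0.643) in YAP1 against MX. Between the constructs it was 0.16 (95% interval -0.12 to 0.44, adjusted p = 0.692). Here too YAP1-S127A replicate 2 was the lowest of its group.

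The 3 regulators of small GTPases did not pass edgeR's main test in any comparison. In YAP1-S127A against MX they had adjusted p of 0.0545 to 0.0573, and each was called in 4 of 21 alternatives, DESeq2 among them. Other alternatives weakened these values in that comparison. Scaled to total counts, the log2 fold change was 0.12 for ASAP1 (adjusted p = 0.619) and 0.12 for DOCK5 (adjusted p = 0.621). For ARHGEF17 it was 0.038 (adjusted p = 0.877) under that scaling. Without 1 library the highest adjusted p was 0.210 for ASAP1, 0.225 for DOCK5 and 0.192 for ARHGEF17. ASAP1 (ENSG00000153317, chromosome 8 from 130052104 to 130443660, minus strand) is a GTPase-activating protein for Arf proteins found at focal adhesions. It had 70.9, 65.6 and 71.2 CPM in the YAP1-S127A libraries, 76.2, 56.7 and 61.8 CPM in the YAP1 libraries and 65.1, 44.7 and 47.0 CPM in the MX libraries. The MX libraries differed widely, with replicate 1 close to the YAP1-S127A libraries and above both other MX libraries. For ASAP1 the log2 fold change was 0.40 (SE 0.14, adjusted p = 0.0573) in YAP1-S127A against MX and 0.31 (SE 0.14, adjusted p = 0.234) in YAP1 against MX. Without MX replicate 1 these were 0.58 (adjusted p = 0.00171) and 0.50 (adjusted p = 0.0123).

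DOCK5 (ENSG00000147459, chromosome 8 from 25184723 to 25418082, plus strand) is an exchange factor that activates Rac. Its levels were 23.9, 19.3 and 25.7 CPM in the YAP1-S127A libraries, 24.8, 21.4 and 21.6 CPM in the YAP1 libraries and 20.1, 16.4 and 15.3 CPM in the MX libraries. Replicate 2 of YAP1-S127A lay below the highest MX library, while the YAP1 libraries all lay above MX. For DOCK5 the log2 fold change was 0.41 (SE 0.14, adjusted p = 0.0547) in YAP1-S127A against MX and 0.39 (SE 0.14, adjusted p = 0.125) in YAP1 against MX. Without MX replicate 1 these were 0.53 (adjusted p = 0.0129) and 0.51 (adjusted p = 0.0298), and without YAP1-S127A replicate 2 the first was 0.52 (adjusted p = 0.0272).

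ARHGEF17 (ENSG00000110237, chromosome 11 from 73308289 to 73369388, plus strand) is an exchange factor for RhoA. It had 62.2, 55.6 and 65.4 CPM in the YAP1-S127A libraries, 58.6, 59.2 and 67.3 CPM in the YAP1 libraries and 51.3, 47.0 and 48.4 CPM in the MX libraries. Both constructs lay wholly above MX and overlapped each other. For ARHGEF17 the log2 fold change was 0.32 (SE 0.11, adjusted p = 0.0545) in YAP1-S127A against MX and 0.33 (SE 0.11, adjusted p = 0.0845) in YAP1 against MX. Without MX replicate 1 these were 0.35 (adjusted p = 0.0362) and 0.37 (adjusted p = 0.0468). The antisense gene AP002761.3 overlaps its start with 1.48% as many counts.

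Between the constructs the GTPase regulators had differences whose 95% intervals held 0, and the sign of each changed under some alternatives. The log2 fold change of ASAP1 was 0.094 (95% interval -0.21 to 0.39), that of DOCK5 0.026 (95% interval -0.28 to 0.33) and that of ARHGEF17 -0.015 (95% interval -0.25 to 0.22). The intervals do not reach the difference of 0.80 measured for CRIM1, but the differences between these genes were not tested.

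RBMS3 (ENSG00000144642, chromosome 3 from 28574791 to 30010391, plus strand) encodes a protein that binds single-stranded RNA and was the least abundant of the 10. It had 9.07, 7.99 and 9.30 CPM in the YAP1-S127A libraries, 10.9, 8.67 and 7.63 CPM in the YAP1 libraries and 9.84, 8.04 and 7.85 CPM in the MX libraries. All 3 groups overlapped. The log2 fold change was 0.032 (95% interval -0.33 to 0.39, adjusted p = 0.926) in YAP1-S127A against MX and 0.076 (95% interval -0.28 to 0.43, adjusted p = 0.860) in YAP1 against MX. Its libraries held 119 to 276 counts each, the fewest of the set, and the overlapping antisense gene RBMS3-AS3 held 16.2% as many.

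Across the set, groups did not overlap for 7 of 10 genes in YAP1-S127A against MX, all higher, against 16.7% of all tested genes that were higher without overlap. It was also 7 of 10 in YAP1 against MX, against 12.1% of all tested genes, and between the constructs 3 of 10, CRIM1, FJX1 and MYOF, against 10.3%. The group means stood in the order MX, YAP1, YAP1-S127A from low to high for 8 of the 10, against 26.2% of all tested genes, and in the reverse order for 0 of the 10, against 25.8%. The exceptions were ARHGEF17 and RBMS3, whose YAP1 means were the highest of the 3. Of neighbours in that order, MX and YAP1 differed past the threshold for CCDC80 and FJX1, and YAP1 and YAP1-S127A for CRIM1. The order of the YAP1 transcript itself was different, since the YAP1-S127A libraries held less of it than the YAP1 libraries (log2 fold change -0.83, adjusted p = 0.00383).

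Levels between genes were compared per kilobase of the deposited gene length. In the YAP1-S127A libraries CRIM1 averaged 43.5 ± 8.32, MYOF 38.1 ± 1.43, GADD45A 37.4 ± 10.2 and FJX1 34.8 ± 3.76 CPM per kilobase (SD, n = 3), and the libraries of these 4 overlapped. In the MX libraries the order of means was MYOF at 25.8 ± 3.41, GADD45A at 24.2 ± 1.11, FJX1 at 19.9 ± 4.20 and CRIM1 at 19.1 ± 2.22 CPM per kilobase (SD, n = 3). The MX libraries of neighbours in that order overlapped. CCDC80 averaged 15.8 ± 2.69 CPM per kilobase with YAP1-S127A and 7.80 ± 1.03 in MX (SD, n = 3), and NUAK2 10.1 ± 1.58 with YAP1-S127A and 8.28 ± 0.845 in MX (SD, n = 3). ASAP1, at 8.36 with YAP1-S127A and 6.31 in MX, and ARHGEF17, at 6.16 with YAP1-S127A and 4.93 in MX, came next. DOCK5 averaged 1.44 with YAP1-S127A and 1.08 in MX, and RBMS3 0.479 with YAP1-S127A and 0.468 CPM per kilobase in MX. By this measure MYOF stood above 91.2% of tested genes and RBMS3 above only 15.3%.

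The genes lie on 6 chromosomes, with a pair each on chromosomes 1, 3, 8 and 11. Median log2 fold changes of the tested genes of these 6 chromosomes ran from -0.080 (chromosome 11) to 0.077 (chromosome 8) in YAP1-S127A against MX. Chromosome 10, which holds MYOF, had a median of -0.11 in YAP1 against MX, and with chromosome medians removed the log2 fold change of MYOF there was 0.48 (adjusted p = 0.0121).

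The 10 were set beside the 12 other genes of the same published signature, among them the CCN, Hippo and growth factor genes. Of these FOXF2, a forkhead factor, had at most 0.155 CPM in any library and was not tested. Among the 11 tested, 7 rose in YAP1-S127A against MX and 6 in YAP1 against MX, which is 63.6% and 54.5%, against 18.4% and 6.81% of all tested genes called there. With YAP1-S127A 4 were higher than with YAP1 (36.4%, against 1.97% of all tested genes). Their median log2 fold change was 1.23 in YAP1-S127A against MX and 0.56 in YAP1 against MX, beside 0.49 and 0.38 for the 10. Whether the lists differ was not tested.

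As means of 3 libraries, the receptor tyrosine kinase AXL had 421 CPM with YAP1-S127A and 179 CPM in MX (log2 fold change 1.23), the ligand TGFB2 had 18.0 CPM with YAP1-S127A and 5.26 CPM in MX (1.78), and the ecto-nucleotidase NT5E had 132 CPM with YAP1-S127A and 71.7 CPM in MX (0.89). The kinase LATS2, which restrains YAP, had 40.0 CPM with YAP1-S127A and 19.1 CPM in MX (1.06). AMOTL2, ANKRD1 and CYR61 were the other genes that rose. IGFBP3, a carrier of insulin-like growth factors, had 267, 586 and 296 CPM in the YAP1-S127A libraries and 99.6, 142.8 and 61.2 CPM in the MX libraries, but did not pass (log2 fold change 1.92, SE 0.52, adjusted p = 0.0512). CTGF (0.35, adjusted p = 0.107), the phosphatase PTPN14 (0.095, adjusted p = 0.717) and tissue factor F3 (-0.17, adjusted p = 0.848) did not pass either. CRIM1 and CCDC80 thus had larger log2 fold changes than NT5E, the lowest among the called genes of this list, and these differences were not tested.

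**Figure D3:**
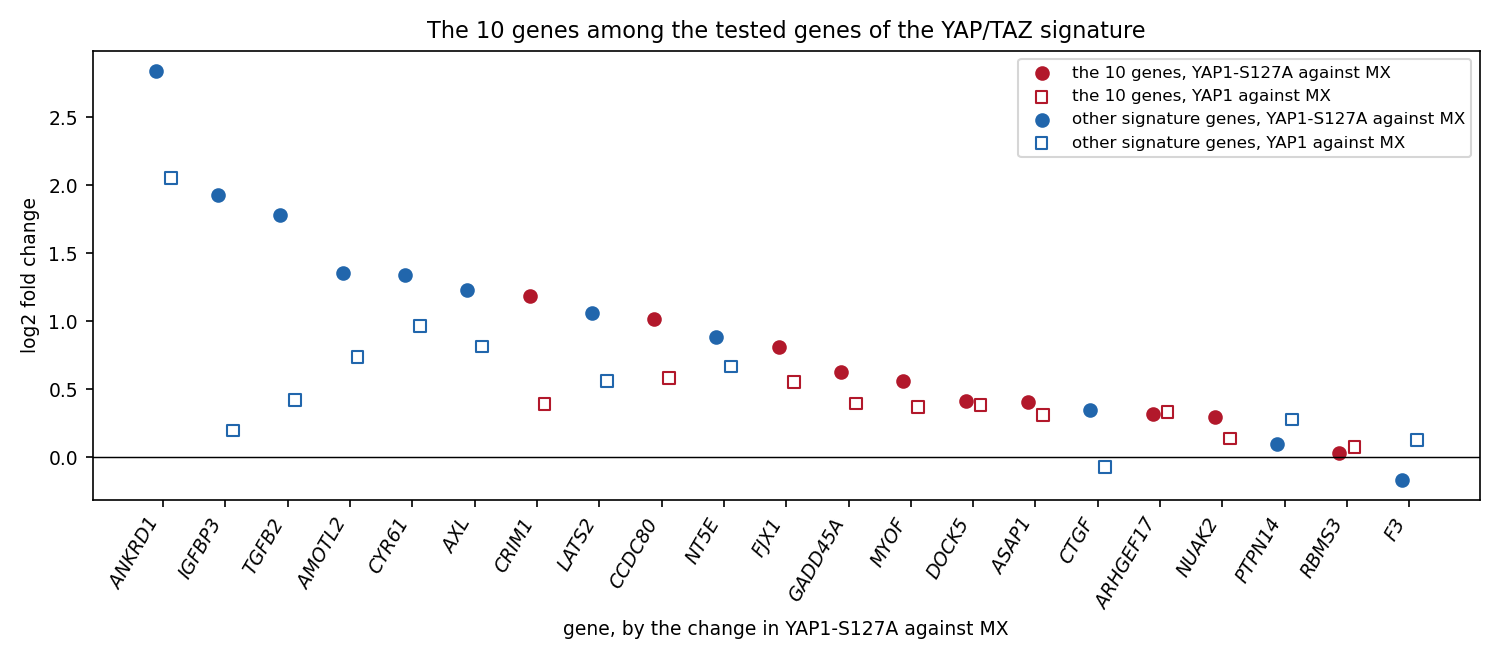
Log2 fold change (vertical axis) of the tested signature genes, ordered by the change in YAP1-S127A against MX, with the 10 genes in red and the other signature genes in blue. Filled circles give YAP1-S127A against MX and open squares YAP1 against MX. ANKRD1 leads at 2.84, CRIM1 at 1.19 is the highest of the 10, and RBMS3 at 0.032 is the lowest of them.

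Of 21 genes related to the 10 by sequence or domains 17 were tested, and in YAP1-S127A against MX 4 rose and 3 fell (41.2%, against 18.4% of all tested genes). DOCK2 rose in YAP1 against MX (log2 fold change 0.55), where KCP and ASAP3 fell. KCP, a secreted protein with chordin-like repeats as in CRIM1, fell to 6.30 CPM with YAP1-S127A, against 22.1 CPM in MX (log2 fold change -1.82, adjusted p = 3.73e-06). SRPX2, which like CCDC80 is secreted, had 14.4 CPM with YAP1-S127A and 27.2 CPM in MX (log2 fold change -0.92, adjusted p = 0.000533), while SRPX had 0.24 (adjusted p = 0.209).

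The ferlin DYSF, known for membrane repair in muscle, rose to 15.9 CPM with YAP1-S127A, against 5.44 CPM in MX (log2 fold change 1.58, adjusted p = 2.38e-05), and differed between the constructs by 1.29 (adjusted p = 0.00190). GADD45B had 19.4, 22.6 and 25.4 CPM in the YAP1-S127A libraries, 13.5, 9.69 and 9.05 CPM in the YAP1 libraries and 8.41, 12.6 and 7.36 CPM in the MX libraries. It did not show the low YAP1-S127A replicate 2 of GADD45A, and its log2 fold change was 1.27 (SE 0.19, adjusted p = 0.000120) in YAP1-S127A against MX. RBMS1 rose by 0.41 (adjusted p = 0.0166) and DOCK4 by 0.53 (adjusted p = 0.0136) on the log2 scale, while the Arf regulator ASAP3 fell by 0.65 on the log2 scale (adjusted p = 0.0260). NUAK1 was at 0.33 (adjusted p = 0.0787), close to the 0.30 of NUAK2.

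**Figure D4:**
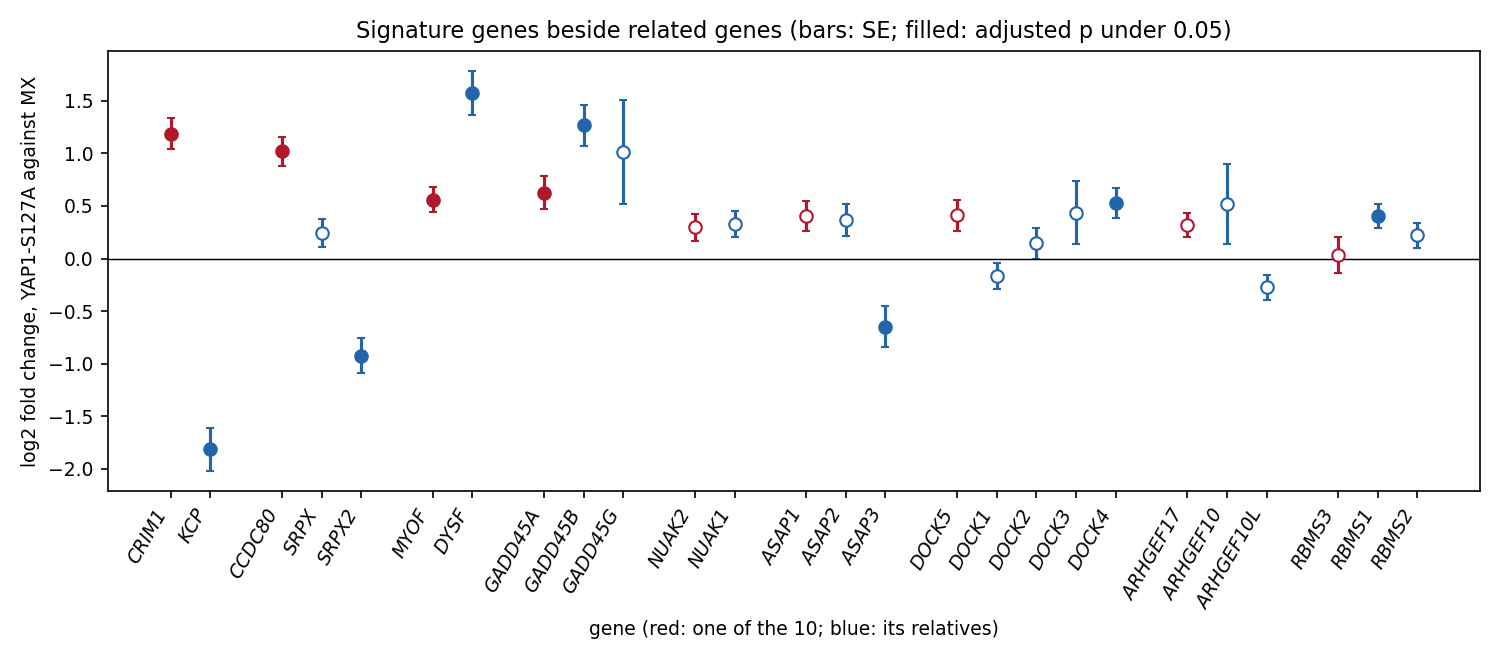
Log2 fold change in YAP1-S127A against MX (vertical axis) of the 10 genes other than FJX1 (red) beside their tested relatives (blue), grouped by family. Bars give the standard error, and filled points passed an adjusted p of 0.05. CRIM1 at 1.19 and KCP at -1.82 differ in sign, while MYOF at 0.56 and DYSF at 1.58 do not.

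Among 31 known binding partners, regulators and substrates of the 10 proteins 29 were tested, and 3 rose and 1 fell in YAP1-S127A against MX (13.8%, against 18.4% of all tested genes). FAT4, the large cadherin of the four-jointed pathway, had 3.03 CPM with YAP1-S127A and 1.51 CPM in MX (log2 fold change 1.01, adjusted p = 0.0259), and ELMO3, of a family that partners DOCK proteins, had 4.74 CPM with YAP1-S127A and 2.53 CPM in MX (0.93, adjusted p = 0.0143). CAB39, a partner of STK11, rose by 0.41 (adjusted p = 0.0246), and VEGFA fell by 0.47 (adjusted p = 0.0296). The small GTPases themselves did not pass, with log2 fold changes of -0.11 for ARF1, 0.048 for RAC1 and 0.18 for RHOA. In YAP1 against MX edgeR called 0 of the 29, against 6.81% of all tested genes, with 5 at an unadjusted p under 0.05, and DESeq2 called 1 and limma-voom 0. Between the constructs edgeR also called 0, against 1.97% of all tested genes, with 2 at an unadjusted p under 0.05, and DESeq2 and limma-voom called 0.

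As GADD45A is a p53 target, 21 other p53 targets were counted beside it. In YAP1-S127A against MX edgeR called 1 higher and 1 lower (9.52%, against 18.4% of all tested genes), DESeq2 called 3 and limma-voom 2. At an unadjusted p under 0.05 with edgeR there were 11 of the 21, beside 4851 of all 15492 tested genes. Of the 21, 14 had a log2 fold change above 0. PLK2, a polo-like kinase, had 687 CPM with YAP1-S127A and 462 CPM in MX (log2 fold change 0.57, adjusted p = 0.00181), and the antiproliferative gene BTG2 had 11.9 CPM with YAP1-S127A and 18.7 CPM in MX (-0.65, adjusted p = 0.00167). The cell cycle inhibitor CDKN1A was at 0.28 (adjusted p = 0.131) and the p53 ligase MDM2 at 0.11 (adjusted p = 0.598). In YAP1 against MX edgeR called 0 of the 21, against 6.81% of all tested genes, with 5 at an unadjusted p under 0.05, DESeq2 called 1 and limma-voom 0.

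For each of the 10, the genes with the most similar profile over the 9 libraries were sought among 9522 abundant protein-coding genes. The measure was the root-mean-square difference of log2 CPM after each gene was centred on its own mean. CCDC80 lay closest to FSTL1, a secreted follistatin-like glycoprotein (difference 0.064), and to the potassium channel KCNK6 (0.074). CRIM1 lay closest to MAMDC2, a protein with MAM domains (0.13), and to the membrane protein EMP1 (0.14). MYOF had PALLD, an actin-associated protein (0.050), and SEC24A, a vesicle coat protein (0.061), as nearest genes. FJX1 had MFSD12 (0.074) and the sialyltransferase ST3GAL4 (0.075). FSTL1 had 1191 CPM with YAP1-S127A and 606 CPM in MX (log2 fold change 0.98), and MAMDC2 46.3 CPM with YAP1-S127A and 18.1 CPM in MX (1.36). Both were picked for their likeness to CCDC80 and CRIM1 over the same 9 libraries, so similar fold changes follow from that choice. For GADD45A the nearest genes were RELT (0.12) and KIAA1841 (0.13), and for the 5 genes that were not called distances ran from 0.045 to 0.082. The SD of log2 CPM over the 9 libraries ran from 0.17 (RBMS3) to 0.27 (ASAP1) for these 5. It ran from 0.27 (MYOF) to 0.55 (CRIM1) for the called genes. Genes that vary little have short distances, so distances cannot be ranked between the 10.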

How the data were processed

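The deposited table holds raw read counts per gene for 9 libraries, whole numbers with no normalization visible, and a gene length in bases, per the file headers. The submitters' processing notes name HISAT2, Cufflinks and Salmon 1.9.0 and a mouse build. The identifiers are human Ensembl genes, so the values were read as human. For the counting program, the human build and the strand setting no source used here gives a value.

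With edgeR 4.0.16 (R 4.3.3), filterByExpr kept 15492 of 58735 genes, libraries were scaled by TMM, and a robust quasi-likelihood model with a term for group was fitted to all 9. Each of 3 contrasts had a two-sided test, p was adjusted by Benjamini-Hochberg across the 15492 genes, and an adjusted p under 0.05 counted as a call. Standard errors were derived from the log2 fold change and its F statistic. CPM uses TMM-scaled library sizes, in which 3 counts are 0.107 to 0.229 CPM (counting error only). Alternatives used DESeq2 1.42.0 and limma 3.58.1, and the mitochondrial covariate was chosen after seeing the data. The steps were tested on simulated counts.

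The members and lists were chosen with earlier results of these data known. Named were the 10 genes, the other signature genes, up to 3 called genes of each further list by p, and the 2 nearest profiles per gene. DOCK2, VEGFA, SRPX2, SRPX, DOCK4, RBMS1, ASAP3, NUAK1, CDKN1A, MDM2, ARF1, RAC1, RHOA, PAX8, CA9, PDGFRA, PDGFRB, COL3A1, DCN, FEZ2, AP002761.3 and RBMS3-AS3 were named outside this rule. CYR61 and CTGF were matched by older symbols.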

Additional observations from a re-analysis of the deposited data

How the results depend on the processing

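Over 21 alternatives to each of the 30 fold changes of the 10 genes, 594 of 630 values kept their side of the threshold, 12 lost the call, 24 gained it and 0 called values changed sign. Values that were not called changed sign for RBMS3 in each comparison and for ARHGEF17, ASAP1, DOCK5, GADD45A, MYOF and NUAK2 between the constructs. CRIM1, CCDC80 and FJX1 were called in YAP1-S127A against MX under every alternative run. Of the 10, the number called in YAP1-S127A against MX, YAP1 against MX and between the constructs was 5, 2 and 1. It was 3, 1 and 1 scaled to total counts, and 8, 4 and 1 with DESeq2. Testing against a minimum fold of 1.2 with glmTreat gave 5, 0 (2 at an unadjusted p under 0.05, with 4 by DESeq2 and 2 by limma-voom without a minimum fold) and 1. Without 1 library it ran from 4 to 8, from 0 (without YAP1 replicate 2, 7 at an unadjusted p under 0.05 with edgeR) to 6 (without MX replicate 1) and from 0 (without YAP1-S127A replicate 3, 2 at an unadjusted p under 0.05 with edgeR) to 2. Over all genes the counts were 2845, 1055 and 305. In YAP1-S127A against MX they were 4447 scaled to total counts, 1631 with glmTreat, 1405 with the mitochondrial share as covariate and 1847 to 3079 without 1 library. In YAP1 against MX they were 540 with glmTreat and 601 to 1423 without 1 library. Between the constructs they were 616 scaled to total counts, 520 without a filter, 475 with DESeq2, 478 with only the groups compared, 134 with glmTreat and 126 to 465 without 1 library. The cause was not tested. The labels give no pairing, and libraries that share a replicate number had correlations of their deviations from group means between -0.178 and 0.204. With the replicate number as a block 8, 4 and 2 of the 10 and 3426, 1428 and 472 of all 15492 tested genes were called, and not every library correlated best with its own number.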
